A study of Mus musculus with 6 samples.

Results

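The genes described here encode ligands and receptors of the tumour necrosis factor (TNF) superfamily. They were taken by symbol, as every gene on the array whose name begins with Tnfsf or Tnfrsf followed by a number, provided that its probe set was paired with a single gene. The rule found 29 of the 19938 genes tested, 9 ligand and 20 receptor genes, each with 1 probe set. A further probe set that pairs with several symbols of the superfamily was not used. RNA was measured on Affymetrix arrays in pre-B cells from C57Bl6 mice aged 4 weeks, of wild-type genotype and transformed by BCR-ABL1, a fusion kinase that drives one form of acute lymphoblastic leukaemia (Ph+ ALL). The cells of 3 arrays were transduced with pMIG, a retroviral vector that also encodes green fluorescent protein (GFP), and are called empty vector 1 to 3. Those of the other 3 received pMIG-IKZF1, the same vector carrying the gene of the transcription factor Ikaros, and are called IKZF1 1 to 3. Both groups thus carry BCR-ABL1 and the vector backbone, and total RNA came from cells sorted for GFP 3 days after transduction. The labels do not say which isoform or species of IKZF1 was used, nor whether a group's arrays stand for separate cultures or animals. The p-values therefore measure the spread between these arrays, which may be technical, and the small number of arrays limits the precision of every value.

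Ligands of the superfamily are mostly membrane proteins that act as trimers on receptors of neighbouring cells. The receptors fall into those with a death domain, which can engage caspases, those that bind TRAF adaptors and activate NF-kB, and decoys that bind a ligand without passing on a signal. In the B lineage the family is best known for the receptors of the survival factor BAFF and for CD40, through which T cells help B cells.

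Levels are given as log2(intensity + 1), a scale on which a difference of 1 is a doubling. The intensities of different probe sets are not comparable, so each gene was compared only with itself across arrays. A gene was called above background in a group when its mean there exceeded the level below which 95% of 1194 olfactory and vomeronasal receptor genes lay, 6.12 in the empty vector group and 6.24 in the IKZF1 group. By this limit 21 of the 29 genes were above background in at least 1 group. The ligand genes above it were Tnfsf8, Tnfsf9, Tnfsf10, Tnfsf11 and Tnfsf15, 5 of 9. Among the receptor genes 16 of 20 were above it, and Tnfrsf1a, Tnfrsf8, Tnfrsf11b and Tnfrsf17 lay below it in both groups.

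Markers of the pre-B identity given in the labels were above background. All 10 measured ones had means above it in both groups, among them Cd79a (13.31 and 13.37), Igll1 (13.87 and 13.66) and Ebf1 (12.75 and 12.79). Rag2, another of them, lay below the limit on empty vector 2 (5.53) and IKZF1 2 (6.03). Ikzf1 itself read 11.85, 11.78 and 11.98 with the empty vector and 13.09, 13.14 and 13.06 with IKZF1. Of the markers of other cells, 4 of 9 for T cells were above background in at least 1 group (Cd3e, Cd5, Cd247 and Cd8a), as were 1 of 6 for NK cells (Prf1), 1 of 8 for granulocytes (Camp) and 2 of 7 for monocytes and macrophages (Cd68 and Lyz2). Dendritic cells had 2 of 6 (Zbtb46 and Batf3), erythroid cells 1 of 2 (Klf1), stromal cells 4 of 6 and plasma cells 4 of 4. Cd3d, Cd3g, Ncr1, Elane, Mpo, Csf1r and Cd14 lay below background in both groups. Limma called 0 of the markers in the lists of pre-B, T, NK, dendritic, erythroid, plasma and stromal cells, granulocytes and monocytes, and the number at an unadjusted p under 0.05 ran from 0 to 4 per list. The highest shares were 50% for plasma cells (2 of 4) and 40% for pre-B cells (4 of 10), against 18.4% of all genes. The granulocyte, dendritic and erythroid lists had 0. The plasma cell gene Jchain was higher without overlap (1.87, limma adjusted p = 0.21). With the replicate block Vpreb2 was lower and the plasma cell regulator gene Prdm1 (adjusted p = 0.0043) and the collagen gene Col1a1 were higher. The first principal component, with 51.3% of the variance, set empty vector 3 (-41.7) apart from the other arrays (-2.73 to 24.5) and did not separate the groups. Results that turn on that array are therefore given with and without it. The second component, with 33.9%, did separate the groups, at 20.2, 25.9 and -2.34 for the empty vector arrays and -12.3, -14.5 and -16.9 for the IKZF1 arrays.

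**Figure D1:**
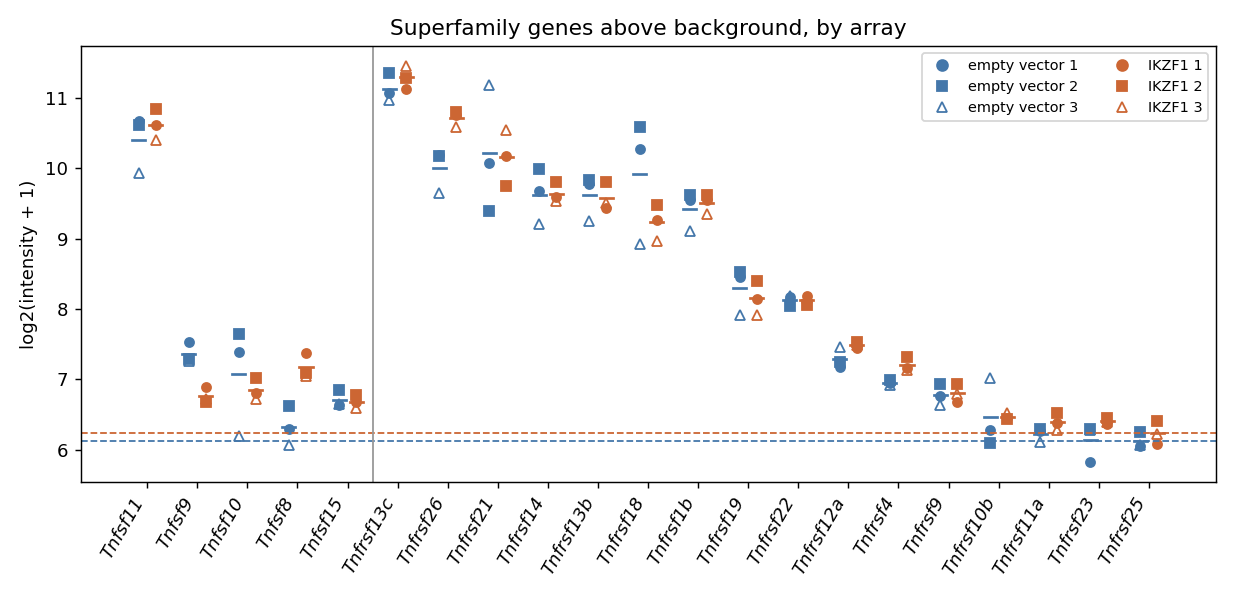
Level of the 21 superfamily genes above background, as log2(intensity + 1), on each of the 3 empty vector arrays (blue) and the 3 IKZF1 arrays (orange), with ligand genes left of the grey line and receptor genes right of it. Short bars are group means and dashed lines the background limits of 6.12 and 6.24; the open triangles show arrays numbered 3, of which empty vector 3 stands away from empty vector 1 and 2 for Tnfrsf18, Tnfrsf21 and Tnfsf10.

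With Ikaros supplied, members of the superfamily were called at a share near that of all genes. In the test of each gene (limma, Benjamini-Hochberg adjustment over all 19938 genes, threshold 0.05), 1 of the 29 genes passed, the ligand gene Tnfsf9, which was lower in the IKZF1 group. This is 3.45% of the members against 2.25% of all genes, and for genes lower in IKZF1 the share over all genes was 1.13%. None was higher in that test, where 1.12% of all genes were. At an unadjusted p under 0.05 there were 5 members, or 17.2%, against 18.4% of all genes. Differences lay above 0 for 20 members, or 69%, with a median of 0.08, where 59.2% of all genes lay above 0 with a median of 0.03. The groups did not overlap for 9 members, or 31%, against 26.5% of all genes. Of the members 8, or 27.6%, were higher in IKZF1 without overlap, against 15.2% of all genes, and 1, or 3.45%, was lower, against 11.3% of all genes. Of the 8 higher ones, 4 lay below background in both groups.

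The arrays carry numbers from 1 to 3 in both groups, and arrays of the same number deviated from their group means together. The labels do not say that the numbers mark pairs, so the pairing was read from these same data. When the number was entered as a block, 7.22% of all genes passed in place of 2.25%, 3.36% higher and 3.86% lower. With arrays centred on their medians the genes called split into 110 higher and 279 lower, in place of 223 and 225, and Tnfsf9 was again the member that passed. Among the members 3 passed with the block: Tnfsf9 lower, and the ligand gene Tnfsf8 and the receptor gene Tnfrsf26 higher.

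**Figure D2:**
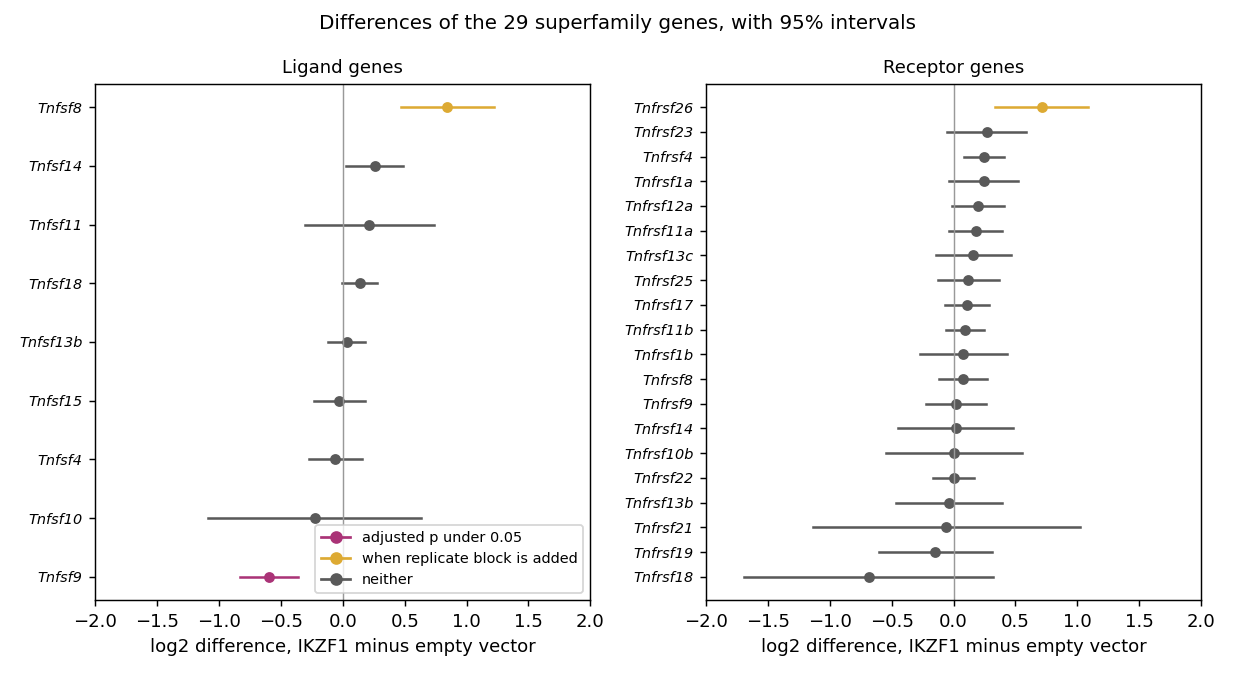
Log2 difference, IKZF1 minus empty vector, of the 9 ligand genes (left) and the 20 receptor genes (right), with 95% confidence intervals from limma as horizontal lines. Tnfsf9 (magenta) passed the threshold, Tnfsf8 and Tnfrsf26 (yellow) did not pass in this fit but did when the replicate block was added, and the widest intervals belong to Tnfrsf21, Tnfrsf18 and Tnfsf10.

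Tnfsf9 encodes the ligand of the costimulatory receptor CD137 and is made by antigen-presenting cells, B cells among them. Its level was 7.53, 7.29 and 7.27 with the empty vector and 6.89, 6.68 and 6.72 with IKZF1. All IKZF1 arrays lay below all empty vector arrays, and all 6 values were above background. The gene was 1.51-fold lower in the IKZF1 group, with means of 7.36 ± 0.15 and 6.77 ± 0.11 (SD, n = 3), or -0.59 ± 0.10 (SE) on the log2 scale (limma adjusted p = 0.037, and 0.011 with the replicate block). The 3 differences between arrays of the same number were alike, at -0.63, -0.61 and -0.54. The call was lost without empty vector 1 (adjusted p = 0.16), empty vector 2 (0.081), IKZF1 1 (0.11), IKZF1 2 (0.13) or IKZF1 3 (0.14), with differences from -0.66 to -0.51, and was kept without empty vector 3 (0.026). Tnfrsf9, which encodes the receptor CD137, read 6.77, 6.93 and 6.64 with the empty vector and 6.68, 6.93 and 6.79 with IKZF1. Its groups overlapped, and the 95% interval of its difference ran from -0.22 to 0.26. Lyz2, a macrophage marker, was also lower, at means of 6.42 and 5.95, the latter below background (a difference of -0.47, adjusted p = 0.20). Of the markers in its list, 4 had a difference above 0 and 3 below 0. The 7 measured monocyte and macrophage markers summed to an intensity of 535 to 598 on the empty vector arrays and of 536 to 584 on the IKZF1 arrays, ranges that overlapped. In a bulk measurement a change of the share of cells that carry a transcript and a change of its amount per cell cannot be told apart.

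Tnfsf9 has the ligand genes Cd70 and Tnfsf14 as its neighbours in the genome, next to each other with no other protein-coding gene between. Cd70, whose product binds CD27, had a mean of 5.22 in the empty vector group and 5.27 in the IKZF1 group. Tnfsf14, which encodes the ligand LIGHT, read 5.03, 5.22 and 5.21 against 5.24, 5.52 and 5.47, a difference of 0.26 (adjusted p = 0.23). Both lay below background in both groups, so of the 3 neighbours Tnfsf9 was the one measured above it. Tnfrsf14, the LIGHT receptor gene, was above background on every array, at 9.67, 9.99 and 9.21 against 9.58, 9.80 and 9.54, with a 95% interval of the difference from -0.45 to 0.48.

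Tnfsf8 encodes the ligand of CD30, a receptor of activated lymphocytes. It read 6.29, 6.62 and 6.07 with the empty vector and 7.38, 7.09 and 7.05 with IKZF1, so that the groups did not overlap. Empty vector 3 lay below the background limit and the other 5 arrays above it. The log2 difference was 0.84 ± 0.16 (SE, n = 3 arrays per group), 1.79-fold, with an adjusted p of 0.053 in limma and of 0.025 with the replicate block. Differences by number were 1.09, 0.47 and 0.97. It also passed with genes above background only (0.048), an intensity trend (0.049), a robust prior (0.047) and array weights (0.015). The adjusted p was 0.04 without empty vector 3 and 0.046 without empty vector 2, and it was 0.22 without empty vector 1 and 0.13 to 0.17 without an IKZF1 array. Because the empty vector level lies close to background, the fold difference may understate the change. Summed intensities of the 9 T cell markers were 612 to 647 on the empty vector arrays and 650 to 777 on the IKZF1 arrays, and 0 of the 9 passed in limma (1 at an unadjusted p under 0.05). Those of the 6 stromal markers were 528 to 609 and 605 to 752. The T cell marker Cd3e was above background on all 6 arrays and higher in IKZF1 without overlap (6.95 and 7.34, a difference of 0.39, adjusted p = 0.21), while Cd3d and Cd3g lay below background, and the part of either list in the values of Tnfsf8 was not tested. Tnfrsf8, the CD30 gene, lay below background in both groups, at 5.90 and 5.98. Tnfsf15, the next gene in the genome and the gene of the ligand TL1A, read 6.64, 6.85 and 6.65 against 6.68, 6.78 and 6.59, and its interval ran from -0.23 to 0.18.

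The promoter of Tnfsf8 and one of the promoters of Tnfrsf9 are shown for this ligand gene and for the receptor gene of the ligand that fell. RefSeq (GRCm38.p6) gave a promoter for 23 of the 29 members, with Tnfsf9 and Tnfrsf26 not among them, in 27 windows of the 250 bases before a transcription start. The letters TGGGAA, a core bound by Ikaros, and the NF-kB consensus of 10 letters were searched on both strands. The windows are chr4:63861285-63861534 on the minus strand for Tnfsf8 and chr4:150927749-150927998 on the plus strand for Tnfrsf9, 5′ to 3′ along the gene, and capitals mark matches.
Tnfsf8: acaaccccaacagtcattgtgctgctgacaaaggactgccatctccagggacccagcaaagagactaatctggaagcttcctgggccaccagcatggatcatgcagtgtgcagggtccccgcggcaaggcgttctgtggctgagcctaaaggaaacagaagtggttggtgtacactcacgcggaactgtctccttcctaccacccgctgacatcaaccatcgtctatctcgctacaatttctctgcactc
Tnfrsf9: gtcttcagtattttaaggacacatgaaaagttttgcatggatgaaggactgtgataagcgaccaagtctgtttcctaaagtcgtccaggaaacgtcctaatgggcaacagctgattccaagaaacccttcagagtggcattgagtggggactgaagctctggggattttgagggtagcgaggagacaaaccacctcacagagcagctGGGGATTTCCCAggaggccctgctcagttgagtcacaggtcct
The Tnfsf8 window held neither set of letters. Of the 2 Tnfrsf9 windows in the table the one with matches is printed, and the other, chr4:150919905-150920154, held 0. In the printed Tnfrsf9 window both sets overlap in the capitals, with TGGGAA on the opposite strand. Among the 27 member windows 4 held TGGGAA, those of Tnfrsf9, Tnfrsf14, Tnfrsf23 and Tnfsf15, where 21.6% of all 32851 promoter windows did. The NF-kB consensus stood in 3, those of Tnfrsf8, Tnfrsf9 and Tnfrsf25, against 7.25% of all windows. Both motifs overlapped in 160 of all windows. A match is a description of the letters and not evidence of binding.

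Tnfrsf26 is a mouse receptor gene that lies directly beside Tnfrsf22, which is followed by Tnfrsf23. The products of Tnfrsf22 and Tnfrsf23 are decoy receptors for the death ligand TRAIL. Tnfrsf26 read 10.19, 10.17 and 9.64 with the empty vector and 10.75, 10.79 and 10.59 with IKZF1. Every IKZF1 array lay above every empty vector array, and empty vector 3 was the lowest. The log2 difference was 0.71 ± 0.16 (SE, n = 3 arrays per group), 1.64-fold, with an adjusted p of 0.08 in limma and of 0.018 with the replicate block, and differences by number of 0.57, 0.62 and 0.95. With array weights the difference was 0.56 (adjusted p = 0.036). Without empty vector 3 it was 0.53 (adjusted p = 0.024), and without any other single array the adjusted p lay between 0.11 and 0.24. Tnfrsf22 read 8.17, 8.05 and 8.18 against 8.18, 8.06 and 8.16, alike in both groups, with an interval from -0.16 to 0.16. Tnfrsf23 read 5.83, 6.30 and 6.29 against 6.37, 6.45 and 6.40, close to background, with a difference of 0.27 (adjusted p = 0.34). The ligand TRAIL is encoded by Tnfsf10 and its death receptor by Tnfrsf10b. Tnfrsf10b read 6.29, 6.09 and 7.02 with the empty vector and 6.45, 6.43 and 6.53 with IKZF1, with equal means of 6.47.

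**Figure D3:**
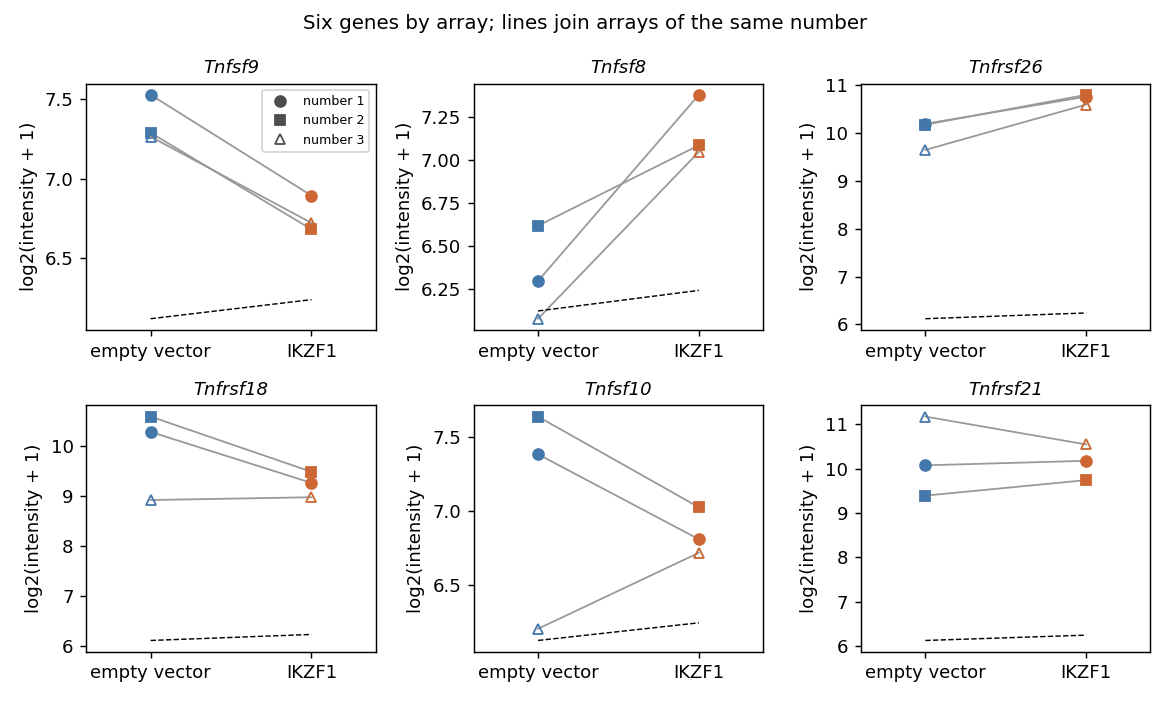
Level of 6 superfamily genes, as log2(intensity + 1), on each empty vector array (blue) and IKZF1 array (orange), with grey lines joining arrays of the same number and the dashed line at the background limits; each panel has its own vertical range. Tnfsf9 is lower and Tnfsf8 and Tnfrsf26 are higher in IKZF1 along all 3 lines, while Tnfrsf18 and Tnfsf10 are lower along the lines of numbers 1 and 2 only.

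Several members differed more between arrays of the empty vector group than between groups. Tnfrsf18 encodes GITR, a costimulatory receptor of lymphocytes. It read 10.27, 10.58 and 8.92 with the empty vector and 9.26, 9.48 and 8.97 with IKZF1, with empty vector 3 the lowest of all arrays. Its log2 difference was -0.69 ± 0.42 (SE, n = 3; limma adjusted p = 0.42, and 0.13 with the replicate block). Without empty vector 3 the difference was -1.19 and passed the threshold (adjusted p = 0.015), and without empty vector 2 it was -0.36 (adjusted p = 0.63). Tnfsf10 read 7.39, 7.64 and 6.20 against 6.81, 7.03 and 6.72. Its difference was -0.23 (adjusted p = 0.76), and without empty vector 3 it was -0.66 (adjusted p = 0.034). Without empty vector 2 it was 0.06 (adjusted p = 0.93). By number, both genes were lower in IKZF1 for numbers 1 and 2, with -1.02 and -1.10 for Tnfrsf18 and -0.58 and -0.62 for Tnfsf10, and higher for number 3, with 0.06 and 0.52. Tnfrsf21, which encodes the death domain receptor DR6, ran the other way. It read 10.08, 9.39 and 11.18 against 10.18, 9.74 and 10.55, highest on both arrays numbered 3, with an interval of the group difference from -1.14 to 1.02.

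Without empty vector 3, 5 of the 29 members passed, Tnfsf8 and Tnfrsf26 higher and Tnfsf9, Tnfrsf18 and Tnfsf10 lower, where 4.75% of all genes did. Over the 21 members above background, empty vector 3 differed by more than 1.5-fold from the mean of empty vector 1 and 2 for 6 genes, 4 lower and 2 higher, which is 28.6% against 10.1% of the 12837 genes above background. The 4 lower ones were Tnfrsf18 (by -1.51 on the log2 scale), Tnfsf10 (-1.31), Tnfsf11 (-0.71) and Tnfrsf14 (-0.62), and the 2 higher ones Tnfrsf21 (1.44) and Tnfrsf10b (0.83). IKZF1 3 deviated by that much for 1 of the 21, Tnfrsf21 (0.59). For 18 of the 21 genes, or 85.7%, both arrays numbered 3 deviated in the same direction, where 70.3% of all genes above background did. For 17, or 81%, the deviation was smaller in the IKZF1 group, against 68.7% of those genes. Differentiation markers also set the arrays numbered 3 apart within their groups. Empty vector 3 was the lowest array of its group for the plasma cell genes Jchain (9.20, 9.56 and 6.90) and Xbp1 (12.57, 12.68 and 11.52). It was the highest for the other plasma cell genes, Sdc1 (8.25, 7.91 and 8.96) and Prdm1 (6.06, 5.74 and 6.67), so that list moved both ways. It was also the highest for the recombinase genes Rag1 (7.93, 6.52 and 9.70) and Rag2 (6.91, 5.53 and 8.95). IKZF1 3 held the same place in its group for each of these genes. There it was the lowest for Jchain (10.61, 10.38 and 10.29) and Xbp1 (11.90, 12.14 and 11.76). It was the highest for Sdc1 (8.33, 8.21 and 8.54), Prdm1 (7.38, 6.81 and 7.77), Rag1 (8.83, 8.04 and 9.55) and Rag2 (7.15, 6.03 and 7.89). The 4 plasma cell markers, Sdc1, Prdm1, Xbp1 and Jchain, summed to an intensity of 3643 to 7619 on the empty vector arrays and of 5303 to 6265 on the IKZF1 arrays. The part of such differences in the values of Tnfrsf18, Tnfsf10 and Tnfrsf21 was not tested.

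**Figure D4:**
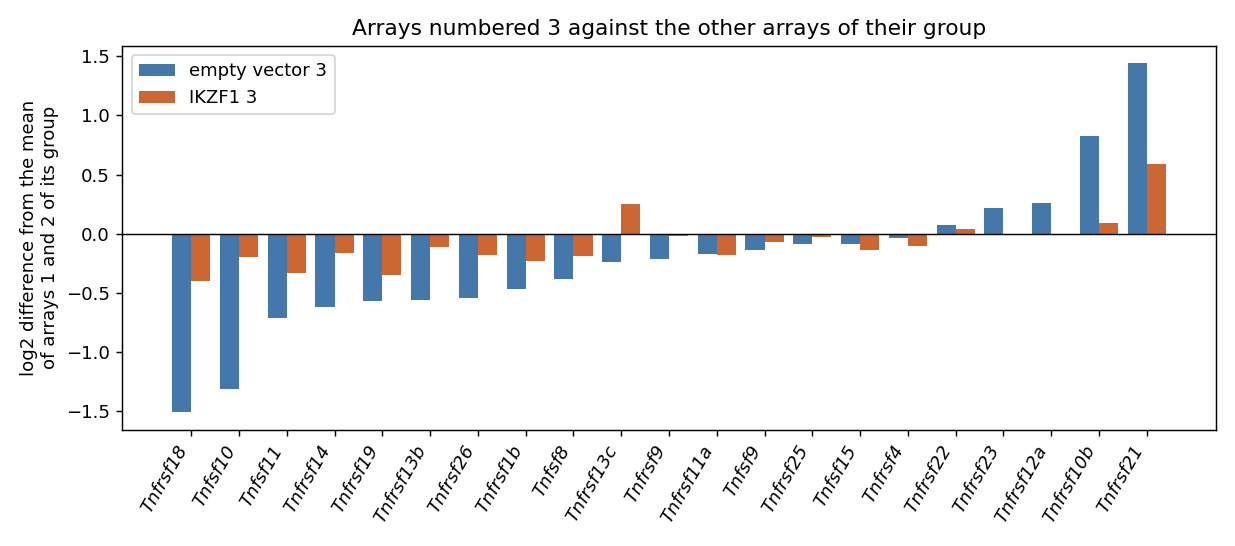
Log2 difference of empty vector 3 from the mean of empty vector 1 and 2 (blue bars) and of IKZF1 3 from the mean of IKZF1 1 and 2 (orange bars), for the 21 superfamily genes above background. Tnfrsf18 at -1.51 and Tnfrsf21 at 1.44 mark the ends of the range for empty vector 3, and the deviations of IKZF1 3 are smaller for 17 of the 21 genes.

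The receptors of BAFF were measured at levels that did not differ between groups beyond their spread. Tnfrsf13c, the BAFF receptor gene, read 11.07, 11.35 and 10.97 with the empty vector and 11.13, 11.28 and 11.45 with IKZF1, a difference of 0.16 with a 95% interval from -0.14 to 0.46. Tnfrsf13b, which encodes the receptor TACI, read 9.77, 9.83 and 9.25 against 9.44, 9.80 and 9.51, with an interval from -0.46 to 0.39. Both genes were above background on all 6 arrays, and their groups overlapped. Tnfrsf17, the gene of BCMA, a receptor of plasma cells, lay below background at 5.73 and 5.84. Tnfsf13b, the gene of BAFF itself, did as well, at 5.98 and 6.01. The differences of these 4 genes had adjusted p between 0.47 and 0.93.

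RANKL, the ligand that drives osteoclast formation, is encoded by Tnfsf11. It read 10.67, 10.61 and 9.93 with the empty vector and 10.62, 10.84 and 10.40 with IKZF1, well above background on each array. The groups overlapped, and the interval of the difference ran from -0.31 to 0.74. Tnfrsf11a, the gene of its receptor RANK, was near background at 6.27, 6.29 and 6.11 against 6.39, 6.53 and 6.28, and Tnfrsf11b, the gene of its soluble decoy osteoprotegerin, lay below it at 5.58 and 5.67.

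Among the other receptors, Tnfrsf4, the gene of the T cell costimulatory receptor OX40, lies next to Tnfrsf18 in the genome. It read 6.95, 6.99 and 6.93 with the empty vector and 7.16, 7.31 and 7.14 with IKZF1, without overlap, a difference of 0.25 ± 0.07 (SE) that did not pass (limma adjusted p = 0.13, and 0.077 with the replicate block). The ligand genes of these receptors, Tnfsf4 and Tnfsf18, are neighbours as well and lay below background, with no array above 5.22. Tnfrsf12a, the gene of the TWEAK receptor Fn14, read 7.17, 7.24 and 7.47 against 7.45, 7.53 and 7.49, a difference of 0.20 (adjusted p = 0.30). Tnfrsf1b, which encodes TNF receptor 2, read 9.54, 9.61 and 9.11 against 9.54, 9.61 and 9.35, with an interval from -0.27 to 0.43, whereas Tnfrsf1a, the gene of the death domain TNF receptor, lay below background at 5.64 and 5.89. Tnfrsf19, an orphan-type receptor gene of the nervous system and of stem cells, had means of 8.30 and 8.15, and Tnfrsf25, the gene of the death domain receptor DR3, lay at the background limit with means of 6.12 and 6.24.

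Superfamily genes that carry other symbols were listed apart, 15 of them. Limma called 0 of the 15, with 3 at an unadjusted p under 0.05 (20% against 18.4% of all genes), and the replicate block added 1, which was higher. That gene was Cd40, whose product receives T cell help. Cd40 read 7.07, 7.17 and 6.95 with the empty vector and 7.47, 7.66 and 7.48 with IKZF1, without overlap, a difference of 0.47 ± 0.09 (SE; adjusted p = 0.052, and 0.019 with the block). Its ligand gene Cd40lg lay below background at 4.79 and 4.84, as did Fas, Fasl, Cd27 and Cd70. Tnf, Lta and Ltb, neighbours that encode TNF and the lymphotoxins, were above background on all arrays. Tnf read 11.04, 11.30 and 9.99 against 10.33, 10.65 and 10.10, and Lta read 11.56, 11.72 and 9.59 against 10.41, 10.60 and 10.19. As for Tnfrsf18, empty vector 3 was the low array. Their differences were -0.42 and -0.56 (adjusted p = 0.54 and 0.61), and without empty vector 3 they were -0.81 (adjusted p = 0.049) and -1.24 (adjusted p = 0.0068). Without empty vector 2 they were -0.16 and -0.18 (adjusted p = 0.80 and 0.87). By number, Tnf and Lta were lower in IKZF1 for numbers 1 and 2 and higher for number 3, by 0.10 and 0.60. Ltb read 8.82, 9.28 and 7.34 against 8.87, 9.09 and 8.41, and did not pass without empty vector 3 either.

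Of 21 measured TRAF and death domain adaptor genes, limma called 0, and the unadjusted p lay under 0.05 for 6, or 28.6% against 18.4% of all genes. Tnip1, which encodes an inhibitor of NF-kB signalling, was higher with the block (0.35, adjusted p = 0.10 and 0.045). The TRAF genes Traf2 (0.31), Traf5 (0.32) and Traf6 (0.07) had adjusted p of 0.22, 0.63 and 0.85, and Fadd, the adaptor of death domain receptors, had -0.35 (adjusted p = 0.13). Ripk3 (-0.40) and Tnfaip3 (-0.19) did not pass with all arrays (adjusted p = 0.50 and 0.64), and their groups overlapped. Without empty vector 3 both passed as lower, with -0.76 and -0.44 (adjusted p = 0.018 and 0.033). Without empty vector 2 the differences were -0.19 and -0.04 (adjusted p = 0.74 and 0.93). By number, both genes were lower in IKZF1 for numbers 1 and 2 and higher for number 3, by 0.14 and 0.28. Traf3 and Ripk1 were not analysed here.

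NF-kB is the main route from superfamily receptors to transcription, and 3 of its 13 measured kinases and subunits rose, 0 fell and 10 did not pass. This is 23.1% against 2.25% of all genes. The 3 were known from earlier results of these data when the list was drawn up, so the count is no independent evidence. The 3 were Nfkb2 (0.54, adjusted p = 0.024), whose product is processed on signals from BAFF receptor and CD40, the inhibitor gene Nfkbia (0.50, adjusted p = 0.019) and Relb (0.33, adjusted p = 0.037), the partner of the Nfkb2 product. Map3k14, the kinase gene of that branch, had 0.07 (adjusted p = 0.65). Nfkbie, another inhibitor gene, had 0.75 (adjusted p = 0.13) and passed with the block (0.034). The 3 calls were lost without any one array other than empty vector 3, with adjusted p from 0.057 to 0.20, and with arrays centred on their medians for Nfkbia (0.058) and Relb (0.16). Relb also lost its call with quantile normalization (0.055), cyclic loess (0.059) and an intensity trend (0.10).

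The promoters of Nfkb2 and Nfkbia are shown because both genes rose together. The windows are chr19:46304487-46304736 on the plus strand, the first of 3 for Nfkb2, and chr12:55492648-55492897 on the minus strand, from RefSeq (GRCm38.p6), with matches to the NF-kB consensus in capitals.
Nfkb2: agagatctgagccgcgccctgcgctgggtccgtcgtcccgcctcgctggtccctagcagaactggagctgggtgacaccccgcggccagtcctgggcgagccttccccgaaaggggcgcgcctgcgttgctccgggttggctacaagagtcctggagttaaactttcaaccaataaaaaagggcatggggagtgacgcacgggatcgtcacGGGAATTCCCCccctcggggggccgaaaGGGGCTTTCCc
Nfkbia: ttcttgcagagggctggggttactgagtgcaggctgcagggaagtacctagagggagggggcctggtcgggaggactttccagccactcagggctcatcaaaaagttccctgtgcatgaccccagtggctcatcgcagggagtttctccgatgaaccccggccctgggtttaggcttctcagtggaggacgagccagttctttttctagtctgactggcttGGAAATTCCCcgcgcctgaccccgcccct
The Nfkb2 window held matches at 3 start positions, the first pair of them overlapping, and its windows 2 and 3, not printed, held 1 each. The Nfkbia window held 1 match and the Tnfsf8 window 0. Over all promoter windows 7.25% held the consensus. The promoter of Relb, which also rose, is not shown, and a link between these letters and the rise was not tested. TGGGAA stood in none of the windows of Nfkb2, Nfkbia and Tnfsf8 printed here.

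**Figure D5:**
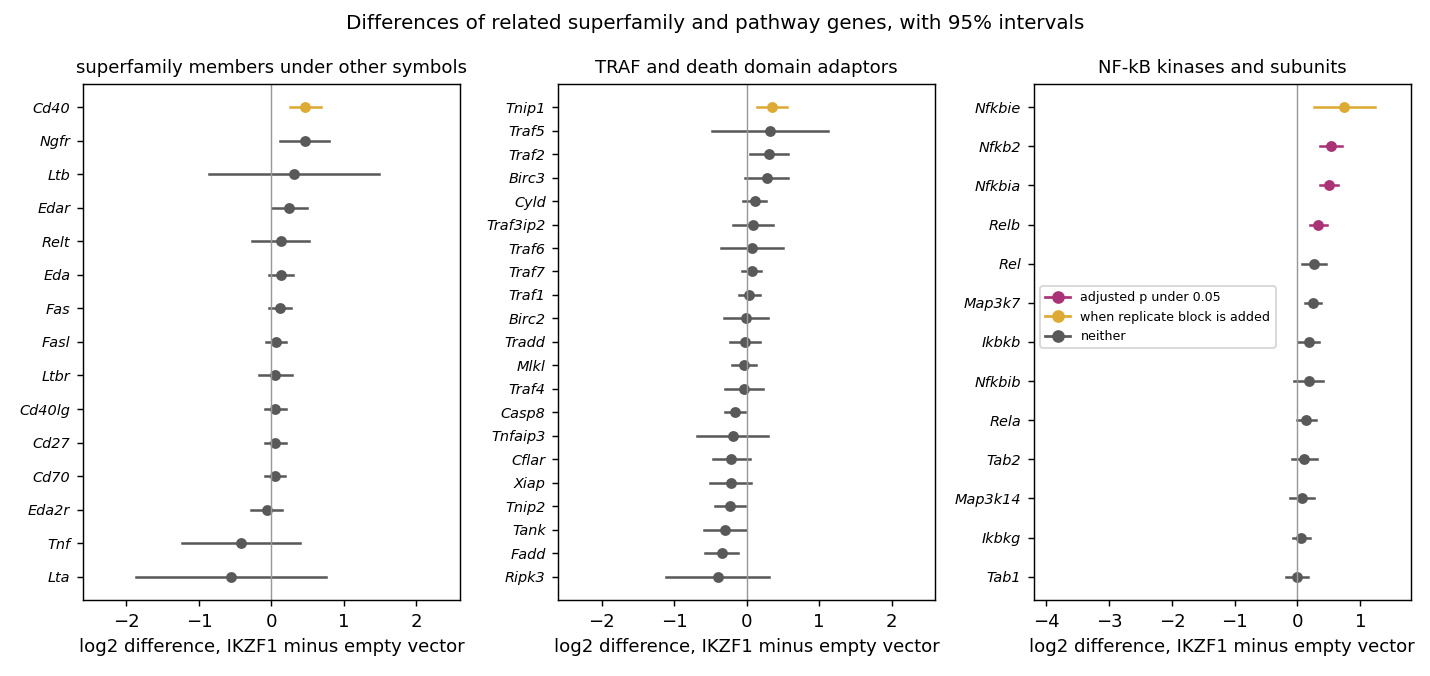
Log2 difference, IKZF1 minus empty vector, with 95% confidence intervals, of the 15 superfamily genes with other symbols (left), 21 adaptor genes (middle) and 13 NF-kB kinases and subunits (right); the panels have different horizontal ranges. Nfkb2, Nfkbia and Relb (magenta) passed the threshold, Cd40, Tnip1 and Nfkbie (yellow) did not in this fit but did when the replicate block was added, and the intervals of Lta, Ltb and Tnf are the widest of the left panel.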

How the data were processed

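Normalization by robust multi-array average (RMA) was done by the authors, per the submitters' processing notes; no version is named there. The table they deposited holds linear intensities of probe sets, from 11.1 to 23523, and log2(intensity + 1) was computed from them. RMA leaves background in dim probe sets, which lowers their fold differences. Of 35421 probe sets 21789 pair with 1 symbol in the platform's table, 1621 with several and 12011 with none. For 999 genes the brightest of several probe sets was used. The fit covered all 19938 genes (limma 3.58.1, R 4.3.3, functions lmFit and eBayes, group as the only term, 2-sided), with Benjamini-Hochberg adjustment over all of them.

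Across genes, deviations from the group mean had r = 0.24, 0.60 and 0.66 between arrays of the same number, and those of other pairs r between -0.68 and 0.11. The numbers, taken from the sample titles, were read as pairs because all 3 exceeded 0.1. Empty vector 1 and IKZF1 2, of unlike number, exceeded that limit as well (0.11). The labels do not say that the numbers mark pairs, so calls that need the block rest on a reading of these same data. The fit with the block is given where it changes a call.

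The members, lists and named genes (every member, and list genes past the threshold or partnered with a member) were chosen with earlier results of these data known. The other settings tried were the pseudocount, filter, probe set rule, array normalization, prior, array weights, block and leaving out each array. The test was checked on simulated data. Promoter sequences and gene order came from RefSeq tables, and no full genome sequence was used.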

Additional observations from a re-analysis of the deposited data

How the results depend on the processing

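Of 513 values of members under the alternatives, 48 had the opposite sign, and none of these passed the threshold. The median difference of all genes was 0.035 and moved between -0.062 and 0.045. Members higher in IKZF1 numbered 0, and 1 with genes above background only, with an intensity trend or with a robust prior, 2 with array weights or the replicate block, and 3 with the block as a random term. Members lower numbered 1 under each of these settings. Leaving out 1 array gave 0 to 2 higher and 0 to 3 lower. The 448 genes called in all became 1481 with array weights, 1439 with the replicate block and 1663 with the random term, and from 24 to 947 without 1 array. Of the pathway genes 3 were called, 5 with a pseudocount of 16, 1 with centred arrays, 7 with array weights, 6 with the replicate block, 8 with the random term, and 0 to 8 without 1 array. The block changed no call of a member or pathway gene other than those given in the results. Members above background numbered from 14, at the 99th percentile, to 25, at the 90th. With 3 arrays a group and dim probe sets close to background, none of the 8 members below background was called by limma, with 1 at an unadjusted p under 0.05 (Tnfsf14), and none was called under the alternatives.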
